A study of Macaca fascicularis and Macaca mulatta with 24 samples.

Results

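Genes for the subunits of oxidative phosphorylation were followed in cortex of cynomolgus macaques after an experimental stroke. The members were all genes of the array whose symbol began with NDUFA, NDUFB, NDUFC, NDUFS, NDUFV, SDHA to SDHD, UQCR, COX4 to COX8 or ATP5, a rule that rests on names and uses no measured value. It found 70 of the 18600 genes on the array. By symbol, 31 were listed under complex I, 4 under complex II, 7 under complex III, 14 under complex IV and 14 under complex V. Of these, 65 are subunits, 2 are assembly factors of complex I (NDUFAF1 and NDUFAF2), and 3 (ATP5S, ATP5SL and COX4NB) were taken in because their symbols share a prefix. In all, 66 members were bright enough in the cortex to be among the 15949 genes tested. The other 4, NDUFA4, NDUFS1, COX8C and ATP5G3, were not well above background on every array of any group and were not tested.

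Oxidative phosphorylation is the last stage of respiration. Complexes I and II pass electrons from NADH and succinate to ubiquinone, complex III passes them to cytochrome c and complex IV, cytochrome c oxidase, to oxygen, while complex V, the ATP synthase, uses the proton gradient built by complexes I, III and IV to make ATP. Neurons of the cortex depend on this pathway for most of their ATP, and it stops where blood flow no longer brings oxygen.

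Every animal had its right middle cerebral artery occluded. Animals received either placebo or 2.6 mg/kg TatNR2B9c intravenously 5 min later, and both sides of the cortex, right (ischemic) and left (non-ischemic), were sampled at 1 h or 6 h, with 3 animals in each of the 8 groups and 24 arrays in all. TatNR2B9c is a cell-penetrating peptide that ends like the NMDA receptor subunit NR2B and was designed to uncouple that receptor from PSD-95. The left cortex is therefore from operated animals, and no sample from an animal without a stroke was analysed here. Right and left arrays that carry 1 animal number in the labels were read as 1 animal, which the labels do not say outright. Age and sex are not given in the labels.

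A level below is the log2 ratio of cortex RNA (Cy5) over a universal reference RNA of rhesus macaque (Cy3) on the same array, after loess. Loess sets the typical probe of each brightness to 0, so 0 does not mean as much RNA as in the reference. Levels of different genes are not set against each other. A difference is that of the mean log2 ratios of 2 groups. A member passed where its p from limma, adjusted by Benjamini-Hochberg over all genes of that comparison, was under 0.05. Counts at an unadjusted p under 0.05 have all genes beside them only in the pooled right-left comparison. The others are not read as results about the members. In a piece of bulk tissue, fewer cells of a type and less RNA per cell cannot be told apart.

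The arrays differed in both channels. Cy5 was well above background for 45.4% (placebo left 1 h array 3) to 97.7% of probes (TatNR2B9c left 6 h array 1). Cy3 was well above background for 15.7 to 51.7% of probes on the placebo 1 h arrays and for 84.3 to 92.5% on the placebo 6 h arrays, against 51.8 to 74.5% for TatNR2B9c at 1 h and 72.3 to 99.3% at 6 h. The extraction software also changed with these sets (placebo 1 h, placebo 6 h and TatNR2B9c each had a version of their own), and no slide or scan day was shared between them. So treatment, and time within placebo, cannot be told apart from the scanning campaign. Right against left, and time within TatNR2B9c, were measured within 1 campaign each, but not always on the same slide or scan day. At placebo 6 h all right arrays were on scan day 3, and left arrays 1 and 3 on day 2. With TatNR2B9c all 1 h arrays were on scan day 4, and 6 h arrays 1 and 2 of both sides on day 5. Side at placebo 6 h and time with TatNR2B9c thus cannot be fully told apart from scan day. Of the 9 neuron markers on the array, all 9 were well above background on every array of every group.

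The probes of the members were bright. Their median log2 brightness was 11.49 against 8.03 over all genes tested, and 54 of the 66 were brighter than the probe of the median gene. This describes probes and does not rank amounts of RNA between genes. Within a group, the median SD of a member over the 3 arrays was 0.320, against 0.288 for all genes. The median member level of an array ran from -0.49 to 0.05. It was between -0.49 and -0.03 on the 6 placebo 1 h arrays, between -0.35 and 0.02 at placebo 6 h, between -0.27 and 0.05 at TatNR2B9c 1 h and between -0.38 and -0.18 at TatNR2B9c 6 h, so the 4 sets overlapped. Loess holds the typical probe of each brightness near 0, so this overlap does not show equal levels. With median centring the members' medians in the 8 treatment and time comparisons were -0.73 to -3.02. The array of placebo left cortex 1 at 1 h stood apart by its narrow range, with an SD of its ratios over all genes of 0.363 against 0.645 to 1.67 on the others.

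**Figure D1:**
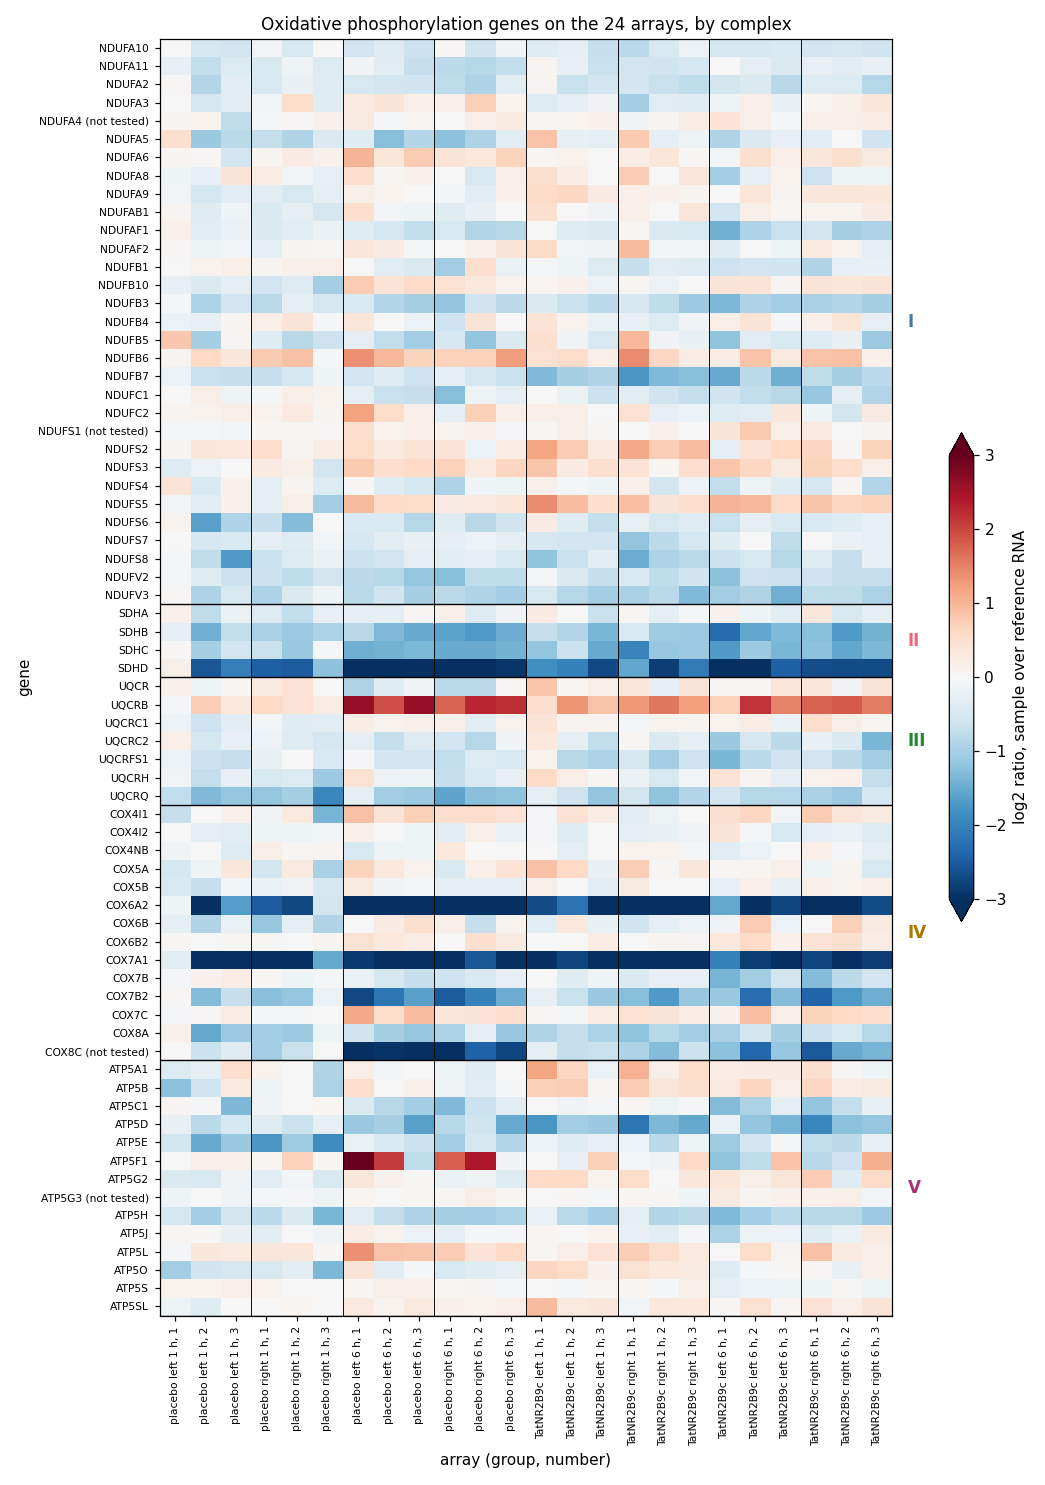
Log2 ratio of cortex over reference RNA (colour, red above and blue below 0, with values past 3 shown in the end colours) of all 70 members (rows, by complex I to V, the 4 not tested marked) on each of the 24 arrays (columns, 3 for each group). UQCRB is red and SDHD, COX6A2 and COX7A1 are deep blue on most arrays, whereas placebo left 1 h array 1 is pale in these rows, where SDHD reads 0.19, COX6A2 -0.14 and COX7A1 -0.31.

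In the cortex channel alone, quantile normalised between arrays, the median member brightness was 11.47 to 12.24 (log2) over the 24 arrays. The reference channel was not normalised between arrays, so its range is not set against that of the cortex channel. There the median ran from 6.24 on placebo left 1 h array 1 to 13.73 on placebo left 6 h array 1. It was 6.24 to 8.84 on all placebo 1 h arrays. At the probes of 37 tested members the reference was well above background on all 6 placebo 1 h arrays, at 20 on some of them, and at 9 (NDUFB1, NDUFC1, UQCRB, COX4NB, COX6B2, COX7B, ATP5F1, ATP5L and ATP5S) on none. A ratio of those 9 at placebo 1 h rests on a reference signal near background. The part of the reference channel in the differences below was not tested, and Cy5 alone is given beside the members' median in a comparison and beside members that passed where it turns the direction.

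**Figure D2:**
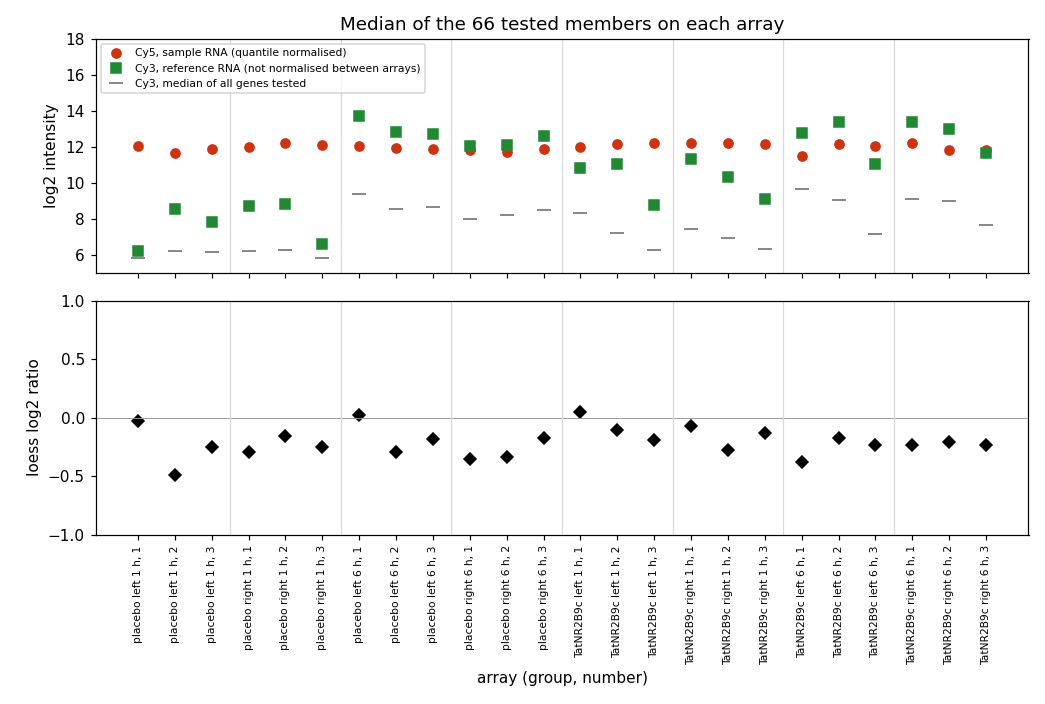
Upper panel: median log2 brightness of the 66 tested members on each array (horizontal axis) in the cortex channel (Cy5, circles, quantile normalised between arrays) and the reference channel (Cy3, squares, not normalised between arrays), with the Cy3 median of all genes tested as a dash. Lower panel: their median log2 ratio after loess. The cortex medians stay between 11.47 and 12.24, the reference medians span 6.24 to 13.73 and are 6.24 to 8.84 on the placebo 1 h arrays, and the ratio medians lie between -0.49 and 0.05.

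The probes that carry the results are 60 bases long and are given by their first 30 bases, 5′ to 3′, because a reading belongs to that stretch of the transcript and not to the gene as a whole. Positions are those of the array files on the rhesus build rheMac2. Which exon or untranslated part a probe lies in was not analysed here.
NDUFA9 (chr11:4791926-4791985, + strand): cagccaggtcgtctctttagaggatcctgt
NDUFB7 (chr19:14278614-14278673, - strand): tggccctgtagggggtgcaccccccaccct
NDUFB10 (chr20:1947512-1947571, + strand): tgtgggtgcgcctgctgtgtggctctgtat
SDHD (chr14:110572215-110572274, + strand): gaagaaatgcttggagtgcttctgaatata
COX6A2 (chr20:29522467-29522526, - strand): acgtcaaccctctgcccactggctacgaac
COX7C (chrX:10477565-10477624, + strand): aaatggatcaaactcgaactcatatggcat
ATP5L (chr14:116791186-116791245, + strand): tttgtctggttttactgccttcgcaaaaac
ATP5O (chr3:12652983-12653042, + strand): gttttctgccatcagtgaaaattcttaaac
ATP5E, first probe (chr10:5498012-5498071, + strand): tgtcttgttcataaattgacaatgtcaata
ATP5E, second probe (chr10:5498011-5498070, + strand): ctgtcttgttcataaattgacaatgtcaat
The 2 probes of ATP5E, the epsilon subunit of the synthase, start 1 base apart and so are not independent readings. ATP5E is reported from the second, brighter one. The array files give probe positions for 67 members, NDUFA11 without a numbered chromosome. The others lie on 19 chromosomes, with at most 10 on one. Whether a position is that of the gene or of a near-identical copy was not tested.

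The ischemic right cortex was compared with the left of the same animals to ask whether the genes of the respiratory chain differ between the injured and the spared side. No member passed in any of the 4 groups of animals or in the mean over them, and neither did any other gene tested (0%). In the mean over the 12 animals the members had a median right-left difference of -0.04, with 20 of 66 (30.3%) above 0, where all genes had a median of 0.00 and 50.2% above 0. That median turned to 0.046 in Cy5 alone, 0.021 with median centring and 0.018 without the 3 arrays of weakest reference. At an unadjusted p under 0.05 limma gave 3 members (604 of all genes), and no other setting tried gave a member that passed.

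At 1 h in placebo animals the median right-left difference of the members was -0.00, with 33 of 66 above 0 and 1 at an unadjusted p under 0.05. At 6 h in placebo it was -0.14, with 14 above 0 and 3 unadjusted, against a median of -0.05 over all genes. In TatNR2B9c animals it was -0.12 at 1 h (20 above 0, 2 unadjusted; all genes -0.03) and 0.12 at 6 h (47 above 0, 0 unadjusted; all genes 0.07). The members thus leaned the way all genes leaned in the last 3 groups, and no member passed in any of them. In Cy5 alone the medians of placebo and TatNR2B9c animals at 1 h turned to 0.11 and 0.021.

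Single animals went both ways. The median right-left difference of the members was -0.19, 0.24 and -0.05 in placebo animals 1, 2 and 3 at 1 h, and -0.50, -0.11 and 0.00 at 6 h. It was -0.28, -0.20 and 0.04 in TatNR2B9c animals at 1 h, and 0.32, -0.04 and 0.06 at 6 h. In Cy5 alone it turned to 0.13 in placebo animal 3 at 1 h and to 0.012, 0.10 and -0.095 in the TatNR2B9c animals at 1 h. The lowest, placebo animal 1 at 6 h, and the highest, TatNR2B9c animal 1 at 6 h, were each number 1 of their group, and the 4 groups overlap. Where right and left shared a slide, the median was -0.03 and -0.05 on the 2 placebo 1 h slides, -0.28, -0.20 and 0.04 on the 3 TatNR2B9c 1 h slides, and 0.06 and 0.10 on the 2 TatNR2B9c 6 h slides. At placebo 6 h the only shared slide held right cortex of 1 animal and left cortex of another, with a median of -0.19.

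**Figure D3:**
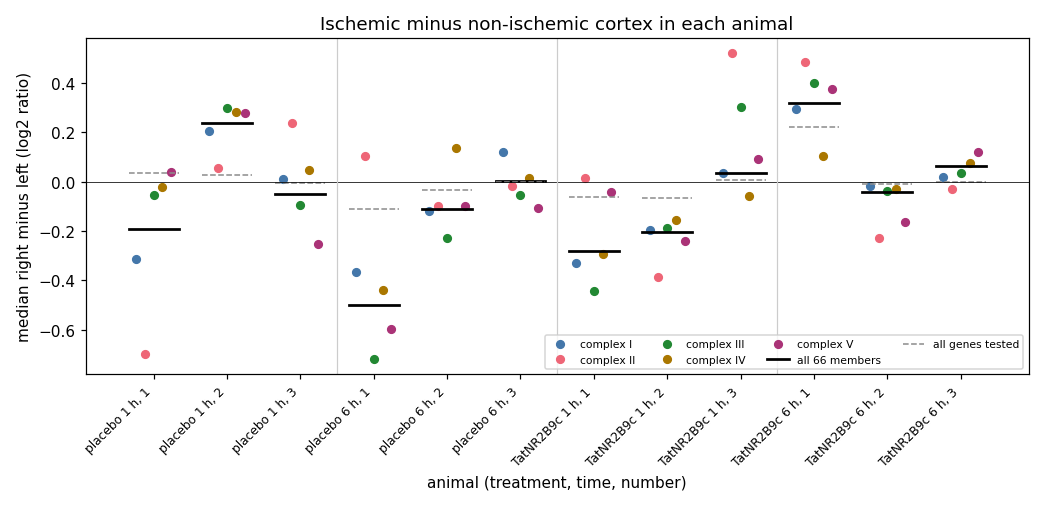
Median right minus left difference in log2 ratio in each of the 12 animals (horizontal axis, 4 groups of 3), for the members of each complex (coloured points), for all 66 tested members (black bar) and for all genes tested (dashed line). The bars lie on both sides of 0, from -0.50 (placebo animal 1 at 6 h) to 0.32 (TatNR2B9c animal 1 at 6 h).

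By complex, the pooled right-left median was -0.04 for complex I (29 genes), -0.03 for complex II (4), -0.00 for complex III (7), -0.10 for complex IV (13) and -0.05 for complex V (13). In Cy5 alone it was 0.070, 0.11, -0.0033, 0.061 and 0.0098 in that order, so that 4 of the 5 turned. Complex I here includes the assembly factors, and complexes IV and V the genes that only share a prefix. The member with the lowest difference was COX6A2, the heart and muscle form of a complex IV subunit, at -0.53 (SE 0.32), and it was above 0 in 5 of 12 animals, from -2.36 to 1.11. Next came UQCRH, the hinge protein of complex III, at -0.40 (SE 0.14, limma adjusted p = 0.888), above 0 in 2 of 12 animals. NDUFS5 of complex I (-0.29), COX7A1, the heart form of another complex IV subunit (-0.29), and UQCRQ of complex III (-0.29) were the other 3 of the 5 lowest. The highest were COX4NB, which only shares the prefix, at 0.22 (above 0 in 10 of 12 animals), NDUFB6 at 0.15, ATP5C1, the gamma subunit of the synthase, at 0.14, UQCRB at 0.13 and NDUFS8 at 0.11. None passed.

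The mean differences of the core subunits lay close to 0 on the same pooled right-left scale, while single animals went both ways. SDHA and SDHB, the flavoprotein and iron-sulfur subunits of complex II, differed by -0.03 (SE 0.13) and -0.04 (SE 0.14). UQCRC1 and the Rieske protein UQCRFS1 of complex III differed by -0.00 (SE 0.08) and 0.02 (SE 0.13). For COX4I1 and COX5B of complex IV the values were -0.16 (SE 0.16) and 0.05 (SE 0.08), and for ATP5A1 and ATP5B, the alpha and beta subunits of the catalytic head of the synthase, -0.12 (SE 0.16) and -0.05 (SE 0.15). Single animals ran from -1.52 to 0.59 for COX4I1, -1.40 to 0.75 for ATP5A1 and -1.24 to 1.09 for ATP5B, but only from -0.44 to 0.40 for UQCRC1. NDUFV1 was not among the members the names gave, and NDUFS1 was too dim to be tested.

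Isoforms of tissue or oxygen use were read too. COX4I2, the lung form that rises with low oxygen in other settings, differed between right and left by -0.10 (SE 0.09), and was well above background in Cy5 on 18 of 24 arrays. COX6A2 and COX7A1, the forms of heart and muscle, had levels far below 0 on nearly all arrays, with means of -2.89 and -3.04 over the 24 arrays. COX6B2, the testis form of COX6B, differed by -0.01, COX6B by -0.20, COX8A by 0.05 and ATP5G2, a form of the synthase's c subunit, by -0.12. COX6A1, COX7A2, NDUFA4L2 and ATP5G1 were not among the members found by name.

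The difference between right-left in TatNR2B9c animals and right-left in placebo animals was tested as an interaction. No member and no gene passed at either time (0%). At 1 h the members' median was -0.14 with 1 member at an unadjusted p under 0.05 in limma, and at 6 h it was 0.23 with 84.8% of members above 0, beside 0.13 and 65.5% for all genes. Those at an unadjusted p under 0.05 at 6 h were COX5B (0.58), COX7C (0.65) and ATP5L (0.66), none with an adjusted p below 0.93. Every setting tried also gave 0.

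TatNR2B9c was then set against placebo at the same side and time. In the ischemic right cortex at 1 h, NDUFB10, ATP5E and ATP5O were higher with TatNR2B9c (3 of 66 members, beside 0.364% of all genes) and NDUFB7 was lower (1 of 66, beside 1.21%), or 4 of 66 beside 1.57% in all. The members' median difference was 0.05 (all genes 0.02). At an unadjusted p under 0.05 limma gave 23 members, with no share of all genes beside them. In Cy5 alone 15 passed (22.7%), beside 17.3% of all genes. ATP5O is the stalk protein that holds the synthase's head to its membrane part (the OSCP subunit), and NDUFB7 and NDUFB10 belong to the membrane arm of complex I.

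ATP5O read -0.48, -0.34 and -1.36 on the placebo right 1 h arrays and 0.45, 0.31 and 0.26 on the TatNR2B9c ones. The groups did not overlap, and placebo array 3 was the lowest. The difference was 1.07 (SE 0.23, 2.09-fold, limma adjusted p = 0.0263). Centring each array on its median in place of loess turned it to -2.42 (limma adjusted p = 0.00743).

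ATP5E read -1.76, -1.08 and -1.89 with placebo and -0.17, -0.80 and -0.15 with TatNR2B9c. All 3 treated arrays were above all 3 placebo arrays, by a difference of 1.20 (SE 0.28, 2.30-fold, limma adjusted p = 0.0364). With median centring ATP5E differed by -1.98 (limma adjusted p = 0.0307). Its first probe gave 1.15.

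NDUFB10 read -0.57, -0.40 and -1.02 with placebo and 0.05, -0.18 and 0.01 with TatNR2B9c, again without overlap. The difference was 0.62 (SE 0.15, limma adjusted p = 0.0489), just inside the threshold, and -2.77 with median centring (limma adjusted p = 0.00444). NDUFB7 read -0.70, -0.51 and -0.14 with placebo and -1.74, -1.31 and -1.27 with TatNR2B9c, so that all treated arrays lay below all placebo arrays. Its difference was -0.99 (SE 0.21, limma adjusted p = 0.0212), while Cy5 alone gave 0.034.

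These 4 calls rest on few arrays. None remained without placebo right array 3, TatNR2B9c right array 1 or TatNR2B9c right array 2, and 1 without placebo right array 1 or TatNR2B9c right array 3. None remained with a scan-day block (beside 0.596% of all genes) or without the 3 arrays of weakest reference (beside 0.339%). In the cortex channel alone 3 of the 4 kept their sign and none passed. The reference channel of the members, not normalised between arrays, differed by a median of 2.06 in the same comparison. The 9 neuron markers were all above 0 here (median 0.89, 0 passed, -0.022 in Cy5 alone), as were 6 of 7 astrocyte markers (median 0.41, 1 passed, -0.75 in Cy5 alone), and their part in the members' differences was not tested.

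In the left, non-ischemic cortex at 1 h, 2 of 66 members passed, both higher with TatNR2B9c, beside 0.89% of all genes (0.853% higher and 0.0376% lower). The members' median was 0.06. At an unadjusted p under 0.05 limma gave 13 members, with no share of all genes beside them. ATP5O read -1.04, -0.59 and -0.51 with placebo and 0.65, 0.56 and 0.13 with TatNR2B9c. NDUFA9, an accessory subunit near the junction of the 2 arms of complex I, read -0.08, -0.52 and -0.31 with placebo and 0.58, 0.61 and 0.25 with TatNR2B9c. In both genes the groups did not overlap, and TatNR2B9c array 3 was the lowest of its group.

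The difference was 1.16 for ATP5O (SE 0.23, 2.24-fold, limma adjusted p = 0.0247) and 0.78 for NDUFA9 (SE 0.14, 1.72-fold, limma adjusted p = 0.0109). Median centring turned both, to -3.29 and -2.60 (limma adjusted p = 0.000444 and 0.00074). NDUFA9 also passed in Cy5 alone (0.56, limma adjusted p = 0.0185). Without TatNR2B9c left array 1 or 2 neither passed. In this comparison too the neuron markers were all above 0 (median 1.42, 1 of 9 passed), with a median of -0.56 in Cy5 alone, and the astrocyte median was 0.78 (0 of 7 passed), with -0.35 in Cy5 alone; their part was not tested. The count of members was 1 without placebo left array 1 and 4 without TatNR2B9c left array 3. ATP5O was higher on both sides at 1 h, but the 2 comparisons share no arrays, only animals and the scanning campaign.

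At 6 h no member passed in the right cortex, beside 4.27% of all genes (2.65% higher and 1.62% lower). The members' median was 0.09. At an unadjusted p under 0.05 limma gave 6 members, with no share of all genes beside them. Cy5 alone gave 5 that passed (7.58%), beside 7.59% of all genes. In the left cortex 6 of 66 members passed, all lower with TatNR2B9c, beside 24.3% of all genes (10.6% higher and 13.7% lower). The share of members that passed was thus below that of all genes, and their median was -0.13 against -0.07.

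The 6 were UQCRB, which binds ubiquinone in complex III, ATP5L, the g subunit of the synthase's membrane part, NDUFC2 and NDUFB7 of complex I, COX7C of complex IV, and ATP5S, a coupling factor that shares the prefix. ATP5L read 1.37, 0.85 and 0.82 with placebo and -0.01, 0.56 and 0.07 with TatNR2B9c, without overlap. Its difference was -0.80 (SE 0.21, limma adjusted p = 0.00953), and it also passed in Cy5 alone (-0.63, adjusted p = 0.0488). NDUFB7 read -0.57, -0.38 and -0.62 with placebo and -1.52, -0.78 and -1.47 with TatNR2B9c, also without overlap, for a difference of -0.73 (SE 0.21, limma adjusted p = 0.0171).

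UQCRB differed by -0.95 (SE 0.30, limma adjusted p = 0.0306), with placebo arrays at 2.62, 1.94 and 2.62 and treated arrays at 0.68, 2.17 and 1.49. NDUFC2 differed by -0.78 (SE 0.28, adjusted p = 0.0477) and COX7C by -0.49 (SE 0.17, adjusted p = 0.0478). In these 3 the groups overlapped, and for COX7C Cy5 alone gave 0.019. ATP5S differed by -0.32 (adjusted p = 0.0153) at a signal well above background on only 1 of the 3 treated arrays, and median centring gave 0.18. Without TatNR2B9c left 6 h array 1 none of the 6 passed, and the count was 2 without placebo left 6 h array 1.

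Markers of other cells moved in the same comparison. The neuron markers had a median difference of -0.63 (0 of 9 passed), the oligodendrocyte markers -1.19 (2 of 7 lower) and the neutrophil and red cell markers 1.99 (2 of 5 higher). In Cy5 alone these medians were -0.15, -1.005 and 2.31. Their part in the lower levels of the members was not tested.

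**Figure D4:**
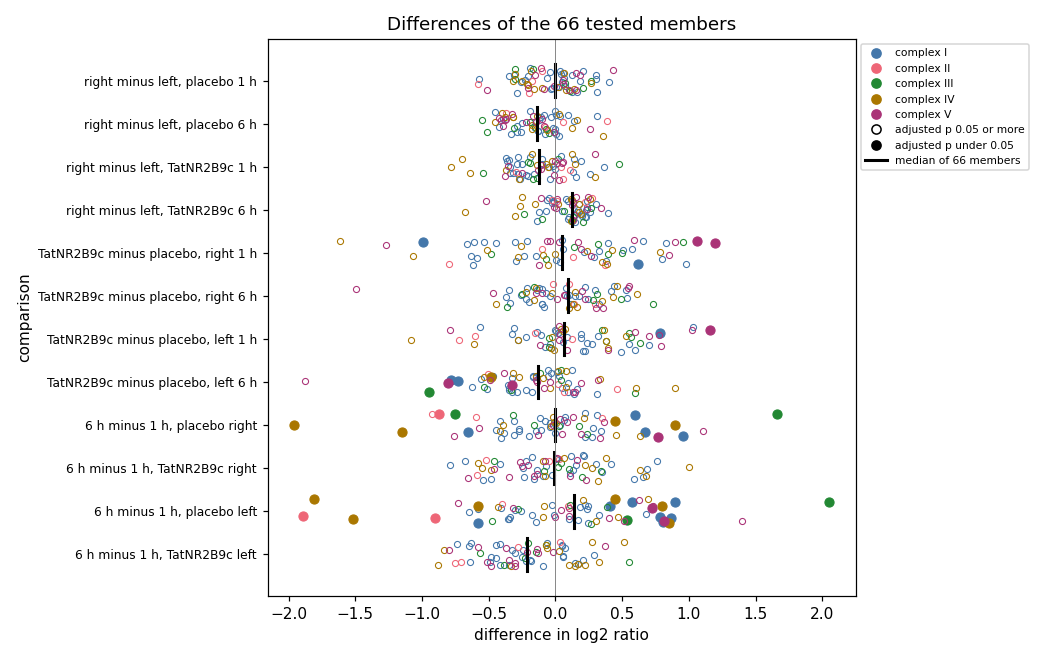
Difference in log2 ratio (horizontal axis) of each of the 66 tested members (points, coloured by complex, filled where the limma adjusted p was under 0.05) in 12 comparisons (rows), with the median of the members as a bar. Filled points are 0 in all right minus left rows, 4 of 66 in right cortex and 2 in left cortex for TatNR2B9c against placebo at 1 h, 6 in left cortex at 6 h, and 12 and 19 for 6 h against 1 h in placebo right and left cortex.

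The time course within each treatment was compared next. With placebo, 12 members passed between 1 h and 6 h in the right cortex (7 higher and 5 lower at 6 h), beside 40.9% of all genes (21.5% higher and 19.4% lower). In the left 19 passed (13 higher and 6 lower), beside 54.1% of all genes (30.8% higher and 23.3% lower). The members' shares, 18.2% and 28.8%, were below those of all genes in loess ratios. This order turned in Cy5 alone (40.9% of members beside 24.9% of all genes in the right, 21.2% beside 14.4% in the left) and with median centring (89.4% beside 71.2%, and 90.9% beside 74.2%). With TatNR2B9c no member passed on either side, and neither did any other gene (0%). The members' median difference there was -0.01 in the right (0.050 in Cy5 alone) and -0.21 in the left cortex. At an unadjusted p under 0.05 limma gave 10 and 14 members, with no share of all genes beside them. On the 1 slide that held both times, the median was -0.09 in the right and 0.03 in the left cortex. Whether the time course differed between the treatments was not tested.

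Higher at 6 h in placebo cortex were UQCRB, NDUFB10 and COX4I1 on both sides. UQCRB read -0.03, 0.74 and 0.31 in left cortex at 1 h and 2.62, 1.94 and 2.62 at 6 h. In right cortex it read 0.60, 0.43 and 0.22 at 1 h and 1.74, 2.29 and 2.21 at 6 h. No 1 h array reached a 6 h array on either side.

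The difference of UQCRB was 2.05 in the left (SE 0.30, 4.14-fold, limma adjusted p = 3.33e-05) and 1.66 in the right cortex (SE 0.30, 3.17-fold, limma adjusted p = 0.000367). It kept its sign in every setting tried. It did not pass from processed signals (0.83 left, adjusted p = 0.237, and 0.35 right, adjusted p = 0.673), nor with equal spread (0.71 and 0.40) or in Cy5 alone (0.34 and 0.21). Its reference signal was well above background on none of the 6 placebo 1 h arrays. Its values with TatNR2B9c were 0.51, 1.32 and 0.86 (left) and 1.31, 1.58 and 1.23 (right) at 1 h, and 0.68, 2.17 and 1.49 and 1.78, 1.83 and 1.54 at 6 h.

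NDUFB10 read -0.24, -0.42 and -0.28 in placebo left cortex at 1 h and 0.77, 0.41 and 0.57 at 6 h. In right cortex the 6 h arrays read 0.47, 0.31 and 0.10, against -0.57, -0.40 and -1.02 at 1 h. On both sides all 6 h arrays were above all 1 h arrays, and the reference was well above background at this probe on all 24 arrays.

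The difference of NDUFB10 was 0.90 in the left (SE 0.15, 1.86-fold, limma adjusted p = 0.00012) and 0.95 in the right (SE 0.15, 1.94-fold, adjusted p = 0.000132). It passed in Cy5 alone on both sides (0.68 and 0.95) and without any 1 array. Centring on the array median turned it to -3.12 and -2.44, which passed in the opposite direction (limma adjusted p = 0.00104 and 0.00756). In the left cortex it did not pass from processed signals (0.62, adjusted p = 0.0575), from the series matrix (0.62, adjusted p = 0.0556) or with equal spread (0.95, adjusted p = 0.195). In TatNR2B9c cortex it read 0.06, 0.13 and -0.17 at 1 h and 0.38, 0.42 and 0.08 at 6 h on the left, and 0.05, -0.18 and 0.01 and 0.40, 0.34 and 0.38 on the right.

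COX4I1, the common form of a regulatory subunit of complex IV, differed by 0.86 in the left (limma adjusted p = 0.0301) and 0.90 in the right cortex (adjusted p = 0.0307). With median centring it differed by -3.67 and -2.84 (limma adjusted p = 0.000387 and 0.00384). Placebo right 1 h array 3, at -1.39, was far below arrays 1 and 2 at -0.11 and 0.29. NDUFA6 of complex I differed by 0.87 in the left (limma adjusted p = 0.000786), but by -0.62 in Cy5 alone and -0.11 with median centring. ATP5E was higher at 6 h in the right cortex by 0.77 (limma adjusted p = 0.0364). It differed by -1.02 in Cy5 alone and by -2.32 with median centring (limma adjusted p = 0.0125).

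Of the other members higher at 6 h, COX7C (0.80), ATP5L (0.81), ATP5O (0.72), NDUFS3 (0.81), NDUFS5 (0.78), NDUFA3 (0.57), UQCRC1 (0.54), COX5B (0.44) and NDUFA9 (0.41) passed in the left cortex. COX7C (0.44), NDUFS3 (0.59) and NDUFS5 (0.68) also did in the right. On the placebo left 1 h arrays COX7C was well above background in Cy5 on 1 of 3 and ATP5L on 2 of 3, and both in Cy3 on 0 of 3. In Cy5 alone ATP5L (-0.54) and ATP5O (-0.23) had the opposite sign in the left cortex. With median centring 60 members passed in the left cortex (beside 74.2% of all genes), 51 of them lower at 6 h, so the higher levels named here hold for loess ratios.

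Lower at 6 h in loess ratios were SDHD and SDHC, the membrane anchors of complex II, and COX6A2 and COX7B2 of complex IV. SDHD read 0.19, -2.57 and -2.04 in placebo left cortex at 1 h and -3.30, -3.45 and -3.35 at 6 h. All 6 h arrays were lower, and array 1 at 1 h, the array of narrow range, stood apart from the others. The difference was -1.89 (SE 0.50, limma adjusted p = 0.00416), -1.06 without that array, and 0.27 with arrays scaled to equal spread.

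COX6A2 read -0.14, -3.24 and -1.65 in placebo left cortex at 1 h and -3.20, -3.27 and -3.97 at 6 h. In the right cortex it read -2.50, -2.73 and -0.54 at 1 h and -4.13, -3.55 and -3.96 at 6 h. The groups overlapped in the left and not in the right cortex.

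Its difference was -1.81 in the left (SE 0.65, limma adjusted p = 0.025) and -1.96 in the right (SE 0.65, limma adjusted p = 0.0219). Cy5 alone gave 1.39 and 1.11, equal spread 0.80 and 0.86, and the authors' deposited ratios 0.076 in the right. Left out, placebo left 1 h array 1 made it -1.04 and placebo right 1 h array 3 made it -1.26.

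SDHC differed by -0.90 in the left and -0.87 in the right (limma adjusted p = 0.0156 and 0.0246). Cy5 alone gave 1.75 and 1.95, which passed in the opposite direction (limma adjusted p = 0.000909 and 0.000177). Equal spread gave 0.034 in the right. COX7B2, a testis form, differed by -1.52 and -1.15 (limma adjusted p = 0.00476 and 0.0324; 0.20 with equal spread in the right), and was well above background in Cy5 on 11 of 24 arrays. UQCR, a small subunit of complex III, differed by -0.75 in the right (limma adjusted p = 0.0294), and NDUFC1 by -0.65. NDUFV2 of the NADH-binding arm differed by -0.58 in the left and COX7B by -0.58, the latter with no placebo left 1 h array well above background in either channel. In Cy5 alone NDUFV2 (1.49) and COX7B (0.59) had the opposite sign.

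**Figure D5:**
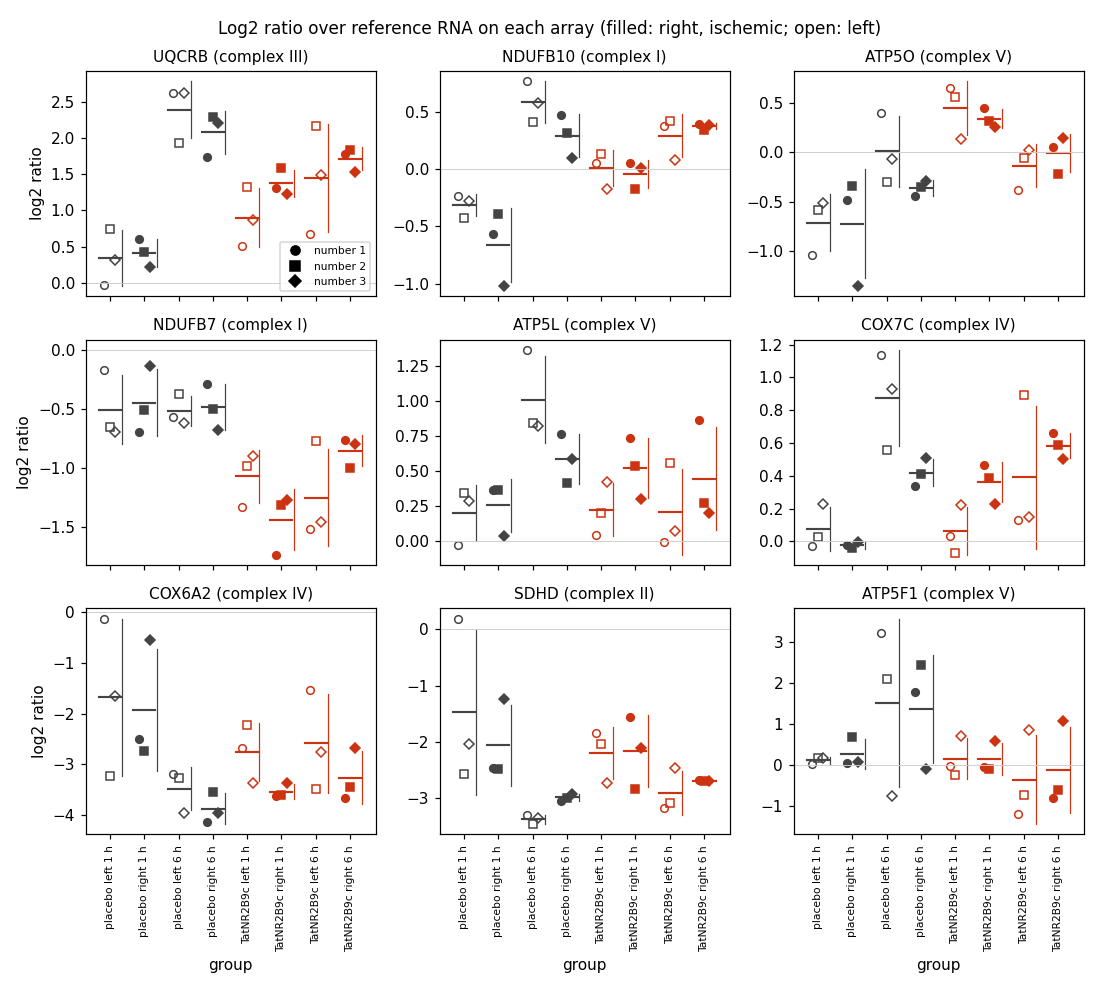
Log2 ratio over reference RNA of 9 members, 1 panel per gene, on each of the 24 arrays (points, placebo dark and TatNR2B9c red, filled for right and open for left cortex, shape for the number 1 to 3), with the mean of each group of 3 (horizontal bar) and 1 SD to either side (vertical line). NDUFB10 and UQCRB are higher on all placebo 6 h arrays than on the placebo 1 h arrays of the same side (NDUFB10 turns with median centring, to -3.12 left and -2.44 right), SDHD and COX6A2 are near 0 on placebo left 1 h array 1, and ATP5F1 is low at placebo 6 h and high at TatNR2B9c 6 h in number 3 on both sides.

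The counts in placebo cortex also depended on single arrays. In the right cortex 3 members passed without placebo right 1 h array 3 or 6 h array 1 and 7 without 6 h array 3, where 12 did in full. Without the 3 arrays of weakest reference, 4 members passed in the right (6.06%, beside 28.0% of all genes) and 11 in the left cortex (16.7%, beside 25.5%), the 11 all higher at 6 h. In Cy5 alone 9 of the 12 and 12 of the 19 called members kept their sign, and 3 and 2 of these passed. Of those with the opposite sign, 1 on each side (SDHC) passed. The reference channel of the members, not normalised between arrays, differed by a median of 3.96 in the right and 5.25 in the left cortex.

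Markers of other cells differed here too. All 9 neuron markers were higher at 6 h in placebo cortex on both sides (medians 2.12 right and 2.41 left), and 6 of 7 oligodendrocyte markers were higher in the left (median 1.90). In Cy5 alone the neuron medians were 0.089 right and -0.069 left, and the oligodendrocyte median was -0.42 left. Neutrophil and red cell markers had a median of -1.44 and meningeal and choroid plexus markers -1.68 in the left cortex, with -0.69 and -0.23 in Cy5 alone. The median level of the neuron markers on an array lay between 0.32 and 2.58 on the placebo 1 h arrays and between 3.30 and 3.90 on the placebo 6 h arrays. Their part in the members' differences was not tested.

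ATP5F1, the b subunit of the synthase's stator, differed between animals more than any other member, and was singled out after its values were seen. At placebo 6 h it read 3.22, 2.09 and -0.77 in left cortex and 1.79, 2.43 and -0.11 in right cortex, so that array 3 was low on both sides. At TatNR2B9c 6 h it read -1.20, -0.75 and 0.85 (left) and -0.83, -0.63 and 1.08 (right), so that array 3 was high on both sides. Its within-group SD was 1.05, larger than that of 97.9% of genes, and the right and left deviations from the group mean had the same sign in 11 of 12 animals. At TatNR2B9c 6 h array 3 lay on another slide and scan day than arrays 1 and 2, and the part of slide in this was not tested. The ATP5F1 probe (chr3:59756669-59756728, - strand) is named by the oldest annotation alone. Whether it reads the gene or a near-identical copy was not tested.

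Right and left of an animal did not deviate together for most other members. The median intraclass correlation of right and left deviations over the 12 animals was -0.02 for the members and 0.04 over all genes. It was over 0.5 for 2 of 66 members (ATP5F1 at 0.84 and UQCR at 0.58) and for 9.53% of all genes. For UQCR the 2 deviations had the same sign in only 7 of 12 animals. This describes 12 pairs of arrays that share animals and, in part, slides.

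Other genes of the pathway were read from lists on the array. Of 32 electron carriers and assembly factors 15 were tested, of 19 genes of the tricarboxylic acid cycle 16, of 12 mitochondrial carriers and porins 10, of 14 regulators of mitochondrial biogenesis 8 and of 13 subunits encoded in mitochondrial DNA 3. None passed between right and left. Between 1 h and 6 h in placebo left cortex the listed genes named here and below were all that passed, where 54.1% of all genes did. In placebo left cortex between 1 h and 6 h, CYCS, the cytochrome c that links complexes III and IV, was lower at 6 h (-1.04, limma adjusted p = 0.0126), as were ETFDH (-1.56), ATPAF1, an assembly factor of the synthase's head (-1.02), and SCO1 (-0.41), while ATPAF2 was higher (0.50). ND1, the complex I subunit of mitochondrial DNA, was higher there (2.29, adjusted p = 0.00095) and with TatNR2B9c in left cortex at 1 h (2.39, adjusted p = 0.0302).

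Of the tricarboxylic acid cycle, IDH3A was higher at 6 h in placebo left cortex (0.81) and IDH3G was lower with TatNR2B9c in right cortex at 1 h (-0.93, limma adjusted p = 0.025). CKMT2, the muscle form of mitochondrial creatine kinase, was lower at 6 h in placebo left (-2.17) and right cortex (-2.32). SLC25A27 (UCP4) was higher there (1.17 and 1.04), as was SLC25A14 (1.76 and 1.41). PPRC1, a coactivator of mitochondrial genes, was higher at 6 h in placebo cortex (1.16 left and 1.01 right), as was NRF1 (0.62 and 0.39). Lower with TatNR2B9c in left cortex at 6 h were PPRC1 (-0.78), ATPAF2 (-0.44), ACAD9 (-0.54) and SLC25A27 (-0.96). In placebo right cortex CYCS, ETFDH, ATPAF1, ATPAF2, SLC25A3 and ND1 passed too, where 40.9% of all genes did. With TatNR2B9c against placebo the share of all genes was 24.3% (left 6 h), 1.57% (right 1 h) and 0.89% (left 1 h). The genes named are not read as results about their lists. No list was tested as a set, and the other scalings were not tried for these single genes.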

How the data were processed

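Cortex RNA of 24 samples was hybridised to Agilent arrays of 1 design with 2 colours. Deposited intensities hold, per the file headers, a spot's mean brightness and its median local background, not normalised. The processed signals, with which the software gives a deposited log10 ratio of Cy5 over Cy3, are background-subtracted and dye-normalised, per the file headers. Deposited flags say whether a spot is well above background or saturated. The series matrix of the authors holds the same log10 ratios, differing by at most 0.005. Images were extracted with Agilent Feature Extraction 9.5.3.1, 10.5.1.1 and 10.7.3.1 per the file headers, of which the submitters' processing notes name the last.

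From the intensities, background was corrected with limma 3.58.1 (normexp, offset 50) and log2 ratios were then loess-normalised array by array, in R 4.3.3. Files were read with the R package data.table (1.17.8), members found with pandas 2.3.3 and numpy 2.4.6 in Python 3.11.15, and plots drawn by matplotlib 3.10.9. Of 41851 spots, 1417 were controls and the rest read 20217 probes. A probe was kept if well above background in Cy5 on all 3 arrays of a group (17226 probes). A gene was read by its brightest probe. All 15 comparisons were fitted with lmFit and eBayes on all 24 arrays (two-sided, 1 mean per group), a step tested on simulated data. Names come from the array files, 35 members by the oldest annotation alone, and were not updated. Near-identical gene copies were not told apart.

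Members that passed in a comparison were named, or the 8 with the largest difference where more did. The 5 highest and 5 lowest in the pooled right-left comparison, fixed core subunits and tissue isoforms were named too. The members, lists and named isoforms were chosen with earlier results of these data known. The 3 samples of a group are separate animals, per the labels, and the fit without a block treats right and left arrays of an animal as independent. The number in the labels was checked as a pairing. Deviations of right and left arrays of 1 number correlated by -0.711 to 0.689 (6 of 12 over 0.1). Those of 1 h and 6 h correlated by -0.231 to 0.281 (6 of 12), and of placebo and TatNR2B9c by -0.419 to 0.364 (4 of 12). The count over 0.1 was the same for right and left as for 1 h and 6 h, so this check does not settle the pairing. No dye swap was made, so dye bias was not tested. The number of arrays limits the precision. Alternatives were other normalisations, filters, probe choices, blocks and left-out arrays.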

Additional observations from a re-analysis of the deposited data

How the results depend on the processing

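Right against left gave 0 members that passed under each of the settings tried and without any 1 array, and so did both interactions. The median differences of the members in these comparisons stayed within the spread between animals, except that median centring gave -0.33 for placebo 1 h, 0.18 for TatNR2B9c 1 h and 0.58 for the interaction at 1 h. In the 8 treatment and time comparisons the median under median centring was -0.20 to -0.34 over all genes and -0.73 to -3.02 over the members.

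With the number of the animal as a replicate block the counts stayed at 4, 0, 2 and 6 for TatNR2B9c against placebo (right 1 h, right 6 h, left 1 h, left 6 h). They stayed at 12 and 19 for 6 h against 1 h in placebo (right, left). The 28 results of single genes that passed kept direction and call with the block, and the 10 pooled right-left ones, which had not passed, did not pass with it.

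For TatNR2B9c against placebo, the count in right cortex at 1 h (4) became 57 with median centring (5 higher, 52 lower, beside 68.6% of all genes). It became 15 in Cy5 alone (beside 17.3%). It was 0 with equal spread (beside 1.04%), a scan-day block (0.596%), only the groups compared (0.263%), or without the 3 arrays of weakest reference (0.339%). The median (0.05) became -2.14 with median centring, 0.27 with equal spread, -0.10 from processed signals and -0.10 from the series matrix. At right 6 h the count (0) became 5 in Cy5 alone (7.59% of all genes), and the median (0.09) -0.73 with median centring, -0.056 with equal spread, -0.13 from processed signals and -0.14 from the series matrix. At left 1 h the count (2) became 60 with median centring (8 higher, 52 lower; 77.2% of all genes), 20 in Cy5 alone (12 higher, 8 lower; 22.2%), 7 with equal spread (beside 1676 of all genes), 1 with a scan-day block, and 0 with only the groups compared or without the 3 arrays. The median (0.06) became -3.02 with median centring, 0.36 without the 3 arrays, -0.24 from processed signals and -0.24 from the series matrix. At left 6 h the count (6, beside 24.3% of all genes) became 0 from processed signals (beside 0.176%) and from the series matrix (0.182%). It was also 0 with equal spread (0.00627%) and with only the groups compared (0.0188%), and 3 with median centring (15.4%). The median (-0.13) became -1.04 with median centring, -0.26 from processed signals and -0.26 from the series matrix.

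For 6 h against 1 h in placebo right cortex, the count (12) became 5 from processed signals (beside 14.8% of all genes). From the series matrix it was 5 (1 higher, 4 lower, beside 14.8%). It became 59 with median centring (8 higher, 51 lower, beside 71.2%), 2 with equal spread (4.55%) and 27 in Cy5 alone (24.9%). With a scan-day block it was 4 (35.4%), with only the groups compared 6 (38%) and without the 3 arrays 4 (28.0%). The median (-0.01) became -2.43 with median centring and 0.40 with equal spread. In placebo left cortex the count (19) became 4 from processed signals (beside 29.5% of all genes) and 4 from the series matrix (0 higher, 4 lower, beside 29.6%). It became 60 with median centring (9 higher, 51 lower, beside 74.2%), 0 with equal spread (12.7%) and 11 without the 3 arrays (25.5%). Its median (0.14) became -2.80 with median centring, 0.35 with equal spread and 0.34 without the 3 arrays. With TatNR2B9c the counts stayed at 0, and the median became -0.93 (right) and -0.92 (left) with median centring, 0.064 with slide as a block (right) and -0.015 in Cy5 alone (left). The causes were not tested.

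Among the 28 single-gene results followed, directions turned as follows. With median centring the values were -3.12 and -2.44 for NDUFB10 (time, left and right), -2.77 (right 1 h), -3.67 and -2.84 for COX4I1, -0.11 for NDUFA6, -2.32 and -1.98 for ATP5E (time, right 1 h), -2.42 and -3.29 for ATP5O (right, left 1 h), -2.60 for NDUFA9 and 0.18 for ATP5S. All of these but NDUFA6 and ATP5S passed in the turned direction. With equal spread they were 0.27 for SDHD, 0.80 and 0.86 for COX6A2, 0.20 for COX7B2 and 0.034 for SDHC. In Cy5 alone they were 1.39 and 1.11 for COX6A2, 1.75 and 1.95 for SDHC, -0.62 for NDUFA6, -1.02 for ATP5E, 0.019 for COX7C and 0.034 for NDUFB7. Of these only SDHC passed, on both sides. For COX6A2 in the right cortex, processed signals gave 0.063 and the series matrix 0.076.

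Leaving out 1 array gave the following ranges. The share of all genes is not given beside counts with 1 array left out, here or above. Losses of calls there cannot be told apart from losses over all genes. Counts lay between 0 and 5 (right 1 h), 0 and 1 (right 6 h, 1 without TatNR2B9c right array 2), 0 and 4 (left 1 h), 0 and 7 (left 6 h), 3 and 10 (placebo right time), 14 and 19 (placebo left time) and 0 and 2 (TatNR2B9c left time, 2 without left 6 h array 3). Medians lay between -0.023 and 0.17 (right 1 h), 0.049 and 0.21 (left 1 h), -0.19 and -0.028 (left 6 h), -0.029 and 0.040 (placebo right time), 0.040 and 0.27 (placebo left time), -0.089 and 0.027 (TatNR2B9c right time) and -0.31 and -0.060 (TatNR2B9c left time). The 28 results of single genes that passed were each refitted without 1 array in turn, and of 168 such fits 99 kept the call and 69 lost it. The reference signal near background on the placebo 1 h arrays limits what those ratios can show.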
